A study of Cyanidioschyzon merolae strain 10D with 12 samples.

Results

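The genes described are those of glycolate oxidation and peroxide removal in the unicellular red alga Cyanidioschyzon merolae: phosphoglycolate phosphatase CMR421C, glycolate oxidase CMQ436C and catalase CMI050C. They were taken by identifier and are 3 of the 4970 genes measured. RNA-seq was run on whole cells of wild-type strain 10D, with 3 biological replicates at each of 4 time points and 12 libraries in all. The 4 groups are HC 0 h, taken from cultures aerated with 5% CO2 (HC, high CO2), LC 3 h and LC 24 h, taken 3 h and 24 h after a change to 0.04% CO2 (LC, low CO2), and HC 24 h recovery, taken 24 h after a return to 5% CO2. All groups shared the genotype, a temperature of 30 °C, light of 90 µmol photons per square metre and second and batch culture from an optical density of 0.7. No library came from a culture held at 5% CO2 up to the later times, so time in culture and CO2 cannot be told apart.

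Photorespiration starts when Rubisco, the enzyme that fixes CO2, takes up oxygen in its place and releases 2-phosphoglycolate, a compound that inhibits carbon metabolism. Phosphoglycolate phosphatase removes the phosphate and leaves glycolate. Glycolate oxidase turns glycolate into glyoxylate with molecular oxygen and releases hydrogen peroxide, and catalase splits that peroxide into water and oxygen. Later steps pass the carbon through glycine and serine back to glycerate. In land plants the phosphatase acts in the chloroplast, and the oxidase and catalase act in peroxisomes. In C. merolae catalase is a known marker of the peroxisome, and glycolate oxidase has been described as needed for growth in air.

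The deposited table matches each gene to an Arabidopsis protein. CMR421C matched AT5G36700 (PGLP1, phosphoglycolate phosphatase, E-value 3e-113), CMQ436C matched AT4G18360 (a putative peroxisomal glycolate oxidase, E-value 4e-155) and CMI050C matched AT4G35090 (CAT2, catalase, E-value 0). Each was the only gene of the table with its enzyme name in the description, and 0 other genes shared its Arabidopsis match. The listed lengths were 1144, 1171 and 1491 bases for phosphatase, oxidase and catalase. In the RefSeq annotation of assembly ASM9120v1, used here only for names and neighbours, 0 annotated genes overlapped any of them. The library kit does not keep strand, so reads of an unannotated antisense transcript would be counted with the gene. The authors placed all 3 genes in the same expression cluster of their table, cluster 8, which holds 479 genes.

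Total estimated counts of a library ranged from 9671514 to 11367648 in the HC 0 h group and from 9887991 to 12063877 in the LC 3 h group. They were larger in the LC 24 h group, from 13366144 to 22881427, and in the recovery group, from 24296458 to 28346661. The lowest count behind any value of the 3 genes was 912, for glycolate oxidase in HC 0 h replicate 1. Replicate 1 stood apart from the others in every group. Across genes, its log2 CPM correlated with replicates 2 and 3 of its own group at r = 0.953 to 0.984, whereas replicates 2 and 3 correlated at 0.991 to 0.996. It held the lowest TPM (the deposited level per gene length, scaled to the library) in 12 of 12 sets of gene and group. Results are therefore also given without replicate 1 of all groups. That choice was made from these data and leaves only replicates 2 and 3 of each group. It narrows the spread, so the SE and p-values of that fit are not independent support. Together the 3 genes took 0.0676% ± 0.00636, 0.813% ± 0.118, 0.657% ± 0.107 and 0.0925% ± 0.0141 of all counts in the 4 groups in time order (SD, n = 3 each).

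Phosphoglycolate phosphatase rose 15.6-fold at LC 3 h, fell again by LC 24 h and was not called different from HC 0 h after recovery. In replicates 1, 2 and 3, CMR421C had 179, 196 and 188 TPM at HC 0 h, and 2030, 2971 and 2959 TPM at LC 3 h. It had 905, 1223 and 1249 TPM at LC 24 h, and 168, 201 and 193 TPM after recovery. The LC 3 h, LC 24 h and high-CO2 ranges do not overlap, whereas the recovery range encloses that of HC 0 h. The group means were 188 ± 8.68, 2653 ± 540, 1126 ± 192 and 187 ± 17.1 TPM in time order (SD, n = 3 each). By mean TPM the gene ranked 1177th of 4956 at HC 0 h, and its ranks at the later times were 36, 82 and 1100. Log2 changes ± SE and adjusted p-values in the text are those of edgeR's quasi-likelihood test over all 4865 genes tested, with Benjamini-Hochberg adjustment, and a gene is called at an adjusted p under 0.05. At LC 3 h against HC 0 h the log2 change was 3.97 ± 0.20 (edgeR adjusted p = 2.52e-07). This was the 15th largest increase among all genes tested, of which 41.4% were called, 22.1% higher and 19.3% lower. The LC 24 h libraries differed from HC 0 h by a log2 change of 2.50 ± 0.19, or 5.64-fold (edgeR adjusted p = 1.76e-06), beside 63% of all genes called, 32.7% higher and 30.3% lower. By size the change ranked 40th among the increases in that comparison. Between LC 24 h and LC 3 h the log2 change was -1.47 ± 0.18 (edgeR adjusted p = 0.00011), beside 53.2% of all genes called, 23.7% higher and 29.5% lower.

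Glycolate oxidase had the lowest starting level of the 3 enzymes and the largest fold increase at LC 3 h. CMQ436C had 99.6, 131 and 131 TPM at HC 0 h in replicates 1, 2 and 3, and 1647, 2269 and 2310 TPM at LC 3 h. It had 900.3, 1218 and 1221 TPM at LC 24 h, and 80.6, 107 and 112 TPM after recovery. The low-CO2 ranges lie apart from each other and above both high-CO2 ranges, which overlap. Means were 120.5 ± 18.1, 2075 ± 372, 1113 ± 184 and 99.9 ± 16.8 TPM in time order (SD, n = 3 each), and the gene's ranks of 4956 were 2188, 51, 83 and 2565. At LC 3 h against HC 0 h the log2 change was 4.25 ± 0.23, or 19.0-fold (edgeR adjusted p = 3.47e-07), the 11th largest increase of all genes tested. The log2 change of LC 24 h against HC 0 h was 3.12 ± 0.22, or 8.67-fold (edgeR adjusted p = 1.07e-06), the 16th largest increase there. That of LC 24 h against LC 3 h was -1.13 ± 0.21 (edgeR adjusted p = 0.00105).

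Catalase had the highest level of the 3 enzymes at every time point, rose at LC 3 h and was not called different between LC 24 h and LC 3 h. CMI050C had 285, 337 and 328 TPM at HC 0 h in replicates 1, 2 and 3, and 2783, 3803 and 3688 TPM at LC 3 h. It had 3280, 4243 and 4214 TPM at LC 24 h, and 423, 565 and 566 TPM after recovery. The 2 low-CO2 ranges overlap each other, and all libraries after recovery lie above all of HC 0 h. Means were 317 ± 27.8, 3425 ± 558, 3912 ± 548 and 518 ± 81.9 TPM in time order (SD, n = 3 each), with ranks of 578, 15, 13 and 307 among 4956 genes. At LC 3 h against HC 0 h the log2 change was 3.58 ± 0.21, or 11.9-fold (edgeR adjusted p = 5.2e-07), and at LC 24 h against HC 0 h it was 3.54 ± 0.21, or 11.6-fold (edgeR adjusted p = 3.95e-07). The change at LC 24 h was the 11th largest increase of all genes tested there, and that at LC 3 h was the 30th largest. Between LC 24 h and LC 3 h the log2 difference was -0.04 ± 0.19 and was not called (edgeR adjusted p = 0.86). Its sign turned with the scaling, at 0.036 with upper-quartile scaling and 0.20 on the log2(TPM + 1) scale. On that TPM scale the median of all genes was itself at 0.19 in this comparison, and catalase lay 0.007 above it.

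**Figure D1:**
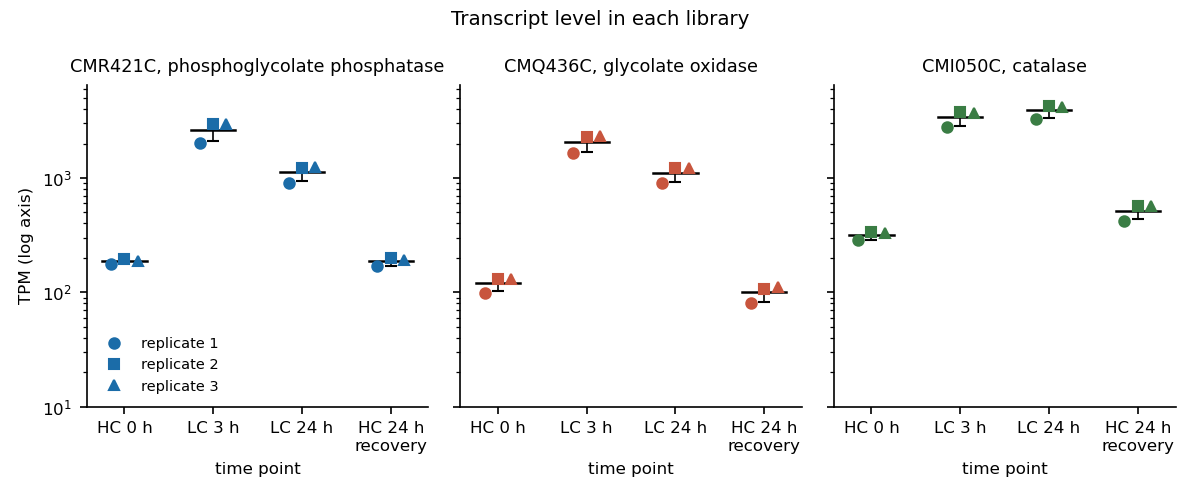
TPM (log axis) of phosphoglycolate phosphatase CMR421C, glycolate oxidase CMQ436C and catalase CMI050C in each of the 12 libraries, by time point, with marker shapes for replicates 1 to 3, long horizontal lines for group means and bars for ± SD. Phosphatase and oxidase peak at LC 3 h (means 2653 and 2075 TPM) and are lower at LC 24 h, whereas catalase is at 3425 and 3912 TPM at those times.

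Return to 5% CO2 was followed by lower levels of all 3 transcripts. Recovery against LC 24 h gave log2 changes of -2.41 ± 0.19 for the phosphatase (edgeR adjusted p = 5.92e-06), -3.30 ± 0.22 for the oxidase (edgeR adjusted p = 2.53e-06) and -2.74 ± 0.20 for catalase (edgeR adjusted p = 3.77e-06). Of all genes tested, 49.6% were called in this comparison, 24.7% higher and 24.9% lower. The oxidase had the 9th largest decrease, catalase the 16th and the phosphatase the 26th.

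After recovery catalase was the only one of the 3 called different from HC 0 h in the fit of all libraries. Its log2 change against HC 0 h was 0.80 ± 0.19, or 1.74-fold (edgeR adjusted p = 0.0206), in a comparison where 14.1% of all genes were called, 7.24% higher and 6.82% lower. The phosphatase differed by 0.09 ± 0.18 (edgeR adjusted p = 0.789), which was -0.0044 on the log2(TPM + 1) scale, and the oxidase by -0.18 ± 0.20 (edgeR adjusted p = 0.594). The catalase call was lost when any 1 of 4 libraries was left out. Its log2 change was then 0.72 without HC 0 h replicate 1 (edgeR adjusted p = 0.079) and 0.82 without HC 0 h replicate 3 (edgeR adjusted p = 0.0577). It was 0.72 without recovery replicate 2 (edgeR adjusted p = 0.09) and 0.71 without recovery replicate 3 (edgeR adjusted p = 0.0712). Leaving out replicate 1 of every group at once, a choice made from these same data, kept only replicates 2 and 3. That fit gave 0.86 ± 0.06 for catalase (edgeR adjusted p = 1.03e-06) and 0.13 ± 0.06 for the phosphatase (edgeR adjusted p = 0.0798). The oxidase was at -0.17 ± 0.06 and was then called (edgeR adjusted p = 0.0279). Removing the libraries that lay apart narrows the spread, so the smaller SE and p-values add no support to the catalase call. The number of genes called in this comparison also moved with single libraries, from 684 with all of them to 189 and 301 without recovery replicates 2 and 3. It was 304, 368 and 358 without HC 0 h replicates 1, 2 and 3, and 1198 without LC 3 h replicate 1.

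Without replicate 1 of every group, the log2 changes at LC 3 h against HC 0 h were 4.09 ± 0.06 for the phosphatase CMR421C, 4.27 ± 0.06 for the oxidase CMQ436C and 3.63 ± 0.07 for catalase CMI050C (edgeR adjusted p of 1.11e-13, 8.76e-14 and 3.13e-13). Since replicate 1 was left out for its own values, the smaller SE and p-values of this fit add no support. The authors' deposited table gives log2 fold changes of 3.81, 4.10 and 3.43 at LC 3 h and 2.58, 3.20 and 3.62 at LC 24 h for phosphatase, oxidase and catalase. In the authors' deposited table the q-values after recovery are 1 for the phosphatase, 1 for the oxidase and 0.00298 for catalase.

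Whether the 3 transcripts changed by equal amounts was tested on the ratio of TPM values within each library, a measure that library scaling does not touch. Phosphatase over oxidase had geometric mean ratios of 1.57, 1.27, 1.01 and 1.89 in time order. The mean log2 ratios were 0.65 ± 0.17, 0.35 ± 0.04, 0.02 ± 0.01 and 0.92 ± 0.14 (SD, n = 3 each). In all 3 LC 24 h libraries the phosphatase stood between 1.00 and 1.02 times the oxidase. The ratio differed across the 4 groups (exact permutation test over 15400 divisions of the libraries, p = 0.00013, Benjamini-Hochberg adjusted over the 3 ratios p = 0.00013). Its recovery and HC 0 h ranges overlap, and in the other comparisons they do not.

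Catalase over oxidase was lowest at LC 3 h and highest after recovery. The geometric mean ratios were 2.65, 1.65, 3.52 and 5.19 in time order. The mean log2 ratios were 1.40 ± 0.10, 0.73 ± 0.04, 1.82 ± 0.04 and 2.38 ± 0.03 (SD, n = 3 each). The groups did not overlap in any of the 5 comparisons, and across the groups the exact permutation p was 6.5e-05, the smallest the design can give (adjusted p = 9.7e-05). The log2 ratio after recovery was 0.97 higher than at HC 0 h, and that of LC 24 h was 1.09 higher than that of LC 3 h.

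Catalase over phosphatase was also lowest at LC 3 h, and its highest value was at LC 24 h. Its geometric mean ratios were 1.69, 1.30, 3.49 and 2.75 in time order, with mean log2 ratios of 0.75 ± 0.07, 0.38 ± 0.07, 1.8 ± 0.05 and 1.46 ± 0.11 (SD, n = 3 each). The exact permutation p was again 6.5e-05, the smallest possible (adjusted p = 9.7e-05). The log2 ratio was 1.43 higher at LC 24 h than at LC 3 h. Differences of these ratios between single pairs of groups are given without a test. No other pair of genes was tested in this way, so how common such differences are among gene pairs is not known here. On the log2 scale each of these ratios follows from the others, so their tests are not separate results.

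**Figure D2:**
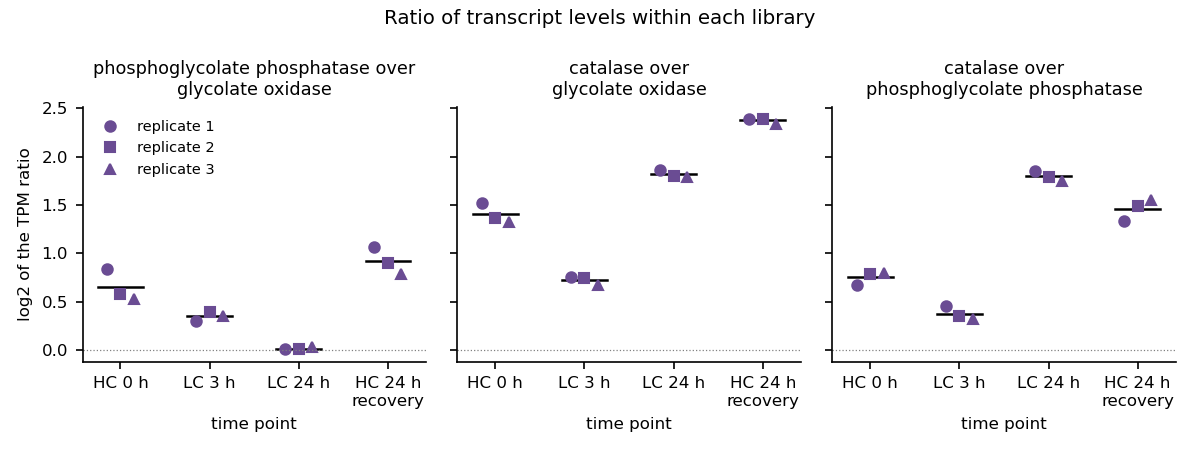
Log2 ratio of TPM values within each library for phosphatase over oxidase, catalase over oxidase and catalase over phosphatase, by time point, with marker shapes for replicates 1 to 3 and horizontal lines for group means. Both catalase ratios are lowest at LC 3 h (log2 0.73 and 0.38) and above their HC 0 h values at LC 24 h and after recovery, and the phosphatase to oxidase ratio lies near 0 on the log2 scale at LC 24 h.

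The enzymes that take the pathway on from glyoxylate were set beside the 3 genes. Of 14 tested genes of other photorespiratory steps, 10 were called higher and 2 lower at LC 3 h against HC 0 h, with a median log2 change of 1.77 beside 0.02 over all genes, of which 22.1% were called higher and 19.3% lower. The 14 include CMJ305C, a phosphoglycerate kinase that the word pattern took in although it belongs to the Calvin-Benson cycle and glycolysis. It was called higher at LC 3 h, at 0.76 ± 0.11. CMS429C, matched to the alanine:glyoxylate aminotransferase that makes glycine from glyoxylate, changed by 5.88 ± 0.22 (edgeR adjusted p = 2.59e-08). The serine hydroxymethyltransferase CMO142C, which joins glycine and a one-carbon unit into serine, changed by 4.27 ± 0.20, and the glycine decarboxylase P protein CMR282C by 3.86 ± 0.22. The 2 lower calls were small. The serine hydroxymethyltransferase CMI091C was at -0.30 ± 0.09 (edgeR adjusted p = 0.0207) and the lipoamide dehydrogenase CMJ014C at -0.28 ± 0.09 (edgeR adjusted p = 0.0256). Each of the 2 calls was lost without HC 0 h replicate 1 or without LC 3 h replicate 2 or 3, CMI091C also without HC 0 h replicate 3 and CMJ014C also without HC 0 h replicate 2 or with only the 6 libraries compared (edgeR adjusted p from 0.0505 to 0.106).

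Later, at LC 24 h against HC 0 h, 8 of the 14 were called higher and 5 lower, beside 32.7% and 30.3% of all genes, and the median was 0.51, beside 0.02 over all genes. The highest were CMS429C at 4.48 ± 0.20, CMO142C at 2.84 ± 0.19 and the hydroxypyruvate reductase CMS425C, which makes glycerate, at 2.71 ± 0.22. CMI091C stood at -0.79 ± 0.09. The phosphoglycerate kinase CMJ305C, not a photorespiratory enzyme, stood at -0.67 ± 0.11. CMQ466C, matched like CMS429C to an alanine:glyoxylate aminotransferase, was at -0.61 ± 0.22 (edgeR adjusted p = 0.0318). Its call was kept under 14 of 20 alternatives. Between LC 24 h and LC 3 h 12 of the 14 were called lower and 0 higher by edgeR and by DESeq2, beside 29.5% and 23.7% of all genes by edgeR, with a median of -1.27 beside -0.05 over all genes. The count at an unadjusted p under 0.05 was also 12 lower and 0 higher, and limma on log2(TPM + 1) called 10 lower and 1 higher. The phosphatase at -1.47 ± 0.18 lay below that median, the oxidase at -1.13 ± 0.21 just above it and catalase at -0.04 ± 0.19 well above it. After recovery 0 of the 14 were called either way against HC 0 h by edgeR, by DESeq2 or by limma on log2(TPM + 1), and 0 had an unadjusted p under 0.05 in edgeR, beside 14.1% of all genes called by edgeR. Over the alternatives tried, 0 to 4 were called higher and 0 to 2 lower, the most being without replicate 1 of every group.

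By level, 5 of the 14 genes lay above the phosphatase and 6 above the oxidase in mean TPM at LC 3 h, against 7 and 12 of them at HC 0 h. CMS429C had the highest mean of the list at LC 3 h, at 8949 ± 1354 TPM (SD, n = 3). At HC 0 h the highest mean was that of the phosphoglycerate kinase CMJ305C, at 1469 TPM. The Rubisco subunits, whose oxygenation opens the pathway, are encoded in the plastid and were read here from libraries made with a kit that selects poly(A) RNA. The large subunit CMV013C changed by 1.26 ± 0.24 and the small subunit CMV014C by 1.07 ± 0.20 at LC 3 h against HC 0 h. By LC 24 h CMV014C was at -0.85 ± 0.20 against HC 0 h, and CMV013C at -0.44 ± 0.24 was not called (edgeR adjusted p = 0.125). After recovery CMV013C was at -1.14 ± 0.24 and CMV014C at -1.52 ± 0.21 against HC 0 h. Both were called lower (edgeR adjusted p of 0.0128 and 0.00275), beside 6.82% of all genes, with 1 to 2 called lower over the alternatives tried.

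Catalase is one of several enzymes that remove peroxide or superoxide. Of 19 other genes of this kind, 9 were called higher and 4 lower at LC 3 h against HC 0 h, with a median log2 change of 0.13, and 8 were called higher and 8 lower at LC 24 h, with a median of 0.06. The called share was 68.4% of the list at LC 3 h and 84.2% at LC 24 h, beside 41.4% and 63% of all genes, whose median was 0.02 at both times. The largest increase was that of CMS311C, matched to peroxiredoxin Q, a plastid thiol peroxidase in plants. It was at 2.39 ± 0.18 at LC 3 h (edgeR adjusted p = 2.21e-06) and 1.62 ± 0.17 at LC 24 h. CMI112C, with the same description, was at 0.13 ± 0.13 and not called at LC 3 h (edgeR adjusted p = 0.45), and was called lower at LC 24 h. CMQ210C, described as chorismate mutase and ascorbate peroxidase, was at 1.46 ± 0.14 and 1.01 ± 0.13 at these times. CMS125C, an S-nitrosoglutathione reductase caught by the word pattern, was at 1.38 ± 0.20 and 0.79 ± 0.20.

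Among the lower ones at LC 3 h, the peroxiredoxins CMC039C and CMN109C were at -0.73 ± 0.11 and -0.67 ± 0.15, and the manganese superoxide dismutase CMR158C was at -0.71 ± 0.14. The manganese superoxide dismutase was at -1.47 ± 0.14 at LC 24 h, and CMI112C, matched like CMS311C to peroxiredoxin Q, was at -0.73 ± 0.13. The glutathione reductase CMC043C, which renews the glutathione used against peroxide, was at -1.44 ± 0.09 at LC 24 h. With the log2(TPM + 1) scale the median of the 19 genes at LC 3 h turned to -0.01, with 9 higher and 6 lower.

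The place of catalase among these genes shifted with time. At HC 0 h 10 of the 19 had a higher mean TPM than catalase, at LC 3 h 2 did, at LC 24 h 0 did and after recovery 5 did. Catalase made up 2.56%, 14.2%, 22.9% and 3.90% of the summed mean TPM of the list and itself in time order. Within the list, the highest mean at all 4 times was that of CMM158C, matched to thylakoid ascorbate peroxidase, with 3847 ± 144, 8313 ± 744, 3657 ± 562 and 3842 ± 326 TPM in time order (SD, n = 3 each). Its mean and that of catalase at LC 24 h, 3912 ± 548 TPM, differed by less than 1 SD of either.

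Catalase and the peroxisomal type of glycolate oxidase are carried into the peroxisome from the cytosol. Of 20 genes of peroxisome formation and import, 10 were called higher and 1 lower at LC 3 h against HC 0 h (median 0.25), and 14 higher and 2 lower at LC 24 h (median 0.47). Of all genes, 22.1% were called higher and 19.3% lower at LC 3 h, and 32.7% higher and 30.3% lower at LC 24 h. CMK124C, matched to PEX5, the receptor for the targeting signal that ends many peroxisomal enzymes, was at 2.15 ± 0.17 at LC 3 h (edgeR adjusted p = 4.2e-06) and 1.68 ± 0.17 at LC 24 h. CML252C, matched to PEX6, an ATPase that recycles the receptor, was at 2.42 ± 0.35 and 1.73 ± 0.35. The membrane protein CMG125C was at 2.16 ± 0.17 at LC 3 h. By LC 24 h CMN269C, matched to the PEX11 family that acts in peroxisome growth and division, was at 1.90 ± 0.16, and CMG003C, matched to the ubiquitin-conjugating enzyme PEX4, was at 1.77 ± 0.48. The CMG003C call was lost without replicate 1 of every group, at 1.70 (edgeR adjusted p = 0.0574).

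The lower calls of this list were CMG206C at LC 3 h, at -0.72 ± 0.19, and CMS031C and CMO253C at LC 24 h, at -0.93 ± 0.11 and -0.76 ± 0.19, all 3 described as peroxisomal membrane proteins. After recovery 4 of the 20 were called higher than at HC 0 h and 0 lower by edgeR, beside 7.24% and 6.82% of all genes, with 2 to 9 higher and 0 to 2 lower over the alternatives tried. DESeq2 called 5 higher and 0 lower, and at an unadjusted p under 0.05 edgeR gave 6 higher and 0 lower. The 4, named after their values were seen, were CMQ019C at 0.27 ± 0.07, CMG206C at 0.77 ± 0.19, CMD105C at 0.34 ± 0.07 and the PEX5-like CML093C at 0.47 ± 0.08. Catalase stood at 0.80 ± 0.19 in the same comparison.

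Other oxidases that release peroxide, in acyl-CoA, amine and sulfite oxidation, gave 4 higher and 2 lower of 8 at LC 3 h against HC 0 h (median 0.72). At LC 24 h they gave 5 higher and 2 lower (median 1.11). Beside these, 41.4% and 63% of all genes were called, 22.1% and 32.7% higher, with a median of 0.02 at both times. The copper amine oxidase CMI002C was at 5.09 ± 0.33 at LC 3 h (edgeR adjusted p = 1.11e-06) and 4.60 ± 0.32 at LC 24 h, and the copper amine oxidase CMT003C at 1.57 ± 0.29 and 2.90 ± 0.29. CMS002C, also described as a copper amine oxidase, was not called at LC 3 h and was at 4.11 ± 1.35 at LC 24 h (edgeR adjusted p = 0.0204). That call was kept under 17 of 20 alternatives. The sulfite oxidase CMR126C was at 1.02 ± 0.08 at LC 3 h. CMN162C, an amine oxidase family protein, was at -0.36 ± 0.09 at both times. These genes lay low in level. CMI002C averaged 234 ± 59.9 TPM at LC 3 h, against 7.61 ± 1.51 TPM at HC 0 h (SD, n = 3 each). Glycolate oxidase was above all 8 in mean TPM at LC 3 h and LC 24 h, whereas 1 lay above it at HC 0 h and 2 after recovery. Its share of their summed mean TPM with its own was 20.1%, 73.4%, 52.2% and 17.2% in time order.

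Phosphoglycolate phosphatase belongs to the haloacid dehalogenase family of hydrolases. Of 14 other genes so described, 6 were called higher and 1 lower at LC 3 h against HC 0 h (median 0.08, or -0.07 on the log2(TPM + 1) scale), and 8 higher and 2 lower at LC 24 h (median 0.25). These are 50% and 71.4% of the family, beside 41.4% and 63% of all genes. CMT388C was at 4.60 ± 0.15 (edgeR adjusted p = 1.66e-08) and 3.42 ± 0.15, CMJ188C at 3.87 ± 0.16 and 2.79 ± 0.15, and CMH042C at 2.25 ± 0.15 and 1.41 ± 0.15 at these times. The substrates of these proteins are not given by the table.

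**Figure D3:**
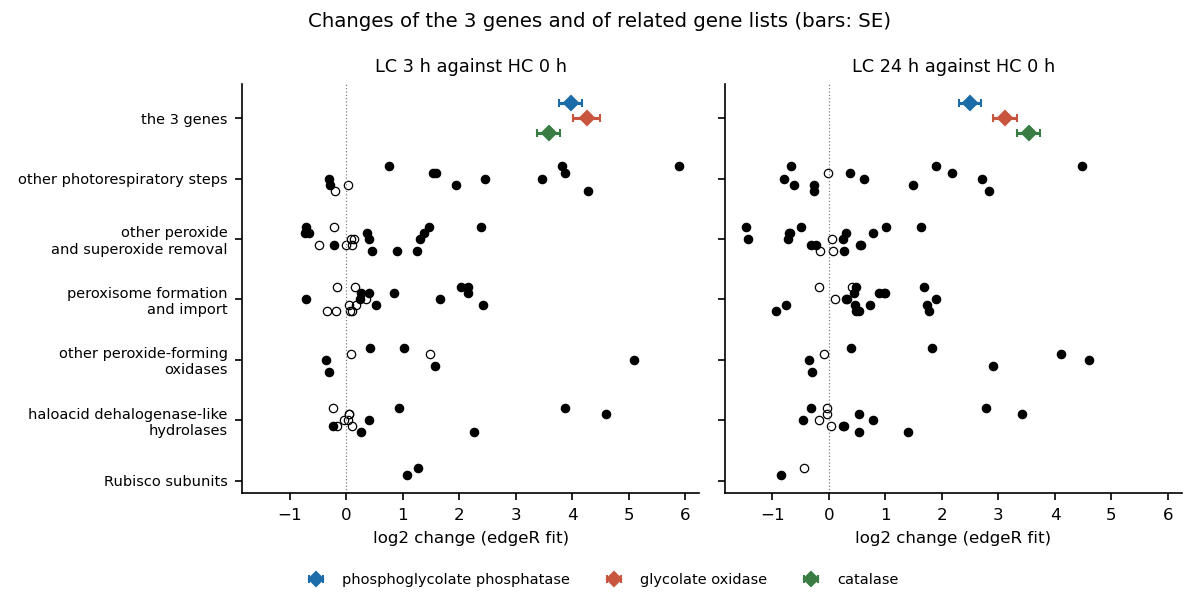
Log2 changes at LC 3 h (left) and LC 24 h (right) against HC 0 h from the edgeR fit, for the 3 enzymes (diamonds, bars are SE) and for every tested gene of 6 related lists (circles, filled where called at an adjusted p under 0.05 and open where not). The 3 enzymes lie between 2.50 and 4.25 in both panels. The lists on peroxide removal, peroxisomes and the hydrolase family have medians from 0.06 to 0.47. Of these lists 50% to 84.2% of genes were called, beside 41.4% of all genes at LC 3 h and 63% at LC 24 h. The medians at LC 3 h and LC 24 h were 1.77 and 0.51 for other photorespiratory steps. They were 0.72 and 1.11 for other peroxide-forming oxidases and 1.16 and -0.65 for the Rubisco subunits.

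To find the transcripts most like each enzyme, log2 CPM profiles over the 12 libraries were each centred on their own mean and compared by their root-mean-square difference. The values describe these libraries, which share the same 4 groups, and carry no test. For the phosphatase the nearest genes were the glycine decarboxylase P protein CMR282C at 0.149, the glyoxylate reductase CMJ086C at 0.151, the serine hydroxymethyltransferase CMO142C at 0.156, the 10-formyltetrahydrofolate synthetase CMJ099C at 0.162 and the hydrolase family member CMJ188C at 0.188. For the oxidase they were the glyoxalase family protein CMP184C at 0.196, the putative membrane protein CMM067C at 0.237, CMJ086C at 0.249, the hydrolase CMT388C at 0.256 and the CSP41B-like RNA-binding protein CMH047C at 0.271. CMJ086C, whose Arabidopsis match reduces glyoxylate back to glycolate, was near both, with log2 changes of 4.02 ± 0.17 at LC 3 h and 2.66 ± 0.16 at LC 24 h against HC 0 h.

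No gene came as close to catalase. Its nearest were CMP253C at 0.287, weakly matched to a potassium channel (E-value 3e-05), the hydroxypyruvate reductase CMS425C at 0.321, CMT050C at 0.364 with no assigned function, the CSP41A-like CML047C at 0.391 and CMF050C, described as a methyltransferase acting on the Rubisco large subunit, at 0.400. CMP253C was at 4.05 ± 0.19 at LC 3 h and 3.82 ± 0.19 at LC 24 h against HC 0 h, and at -0.24 ± 0.17 between LC 24 h and LC 3 h. The oxidase was 16th nearest to the phosphatase among 4864 genes, at 0.349, and the phosphatase 7th nearest to the oxidase. Catalase was 34th nearest to the phosphatase at 0.566 and 24th nearest to the oxidase at 0.604. The listed genes nearest to each enzyme were all in the authors' cluster 8, a cluster that was made from the same libraries.

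**Figure D4:**
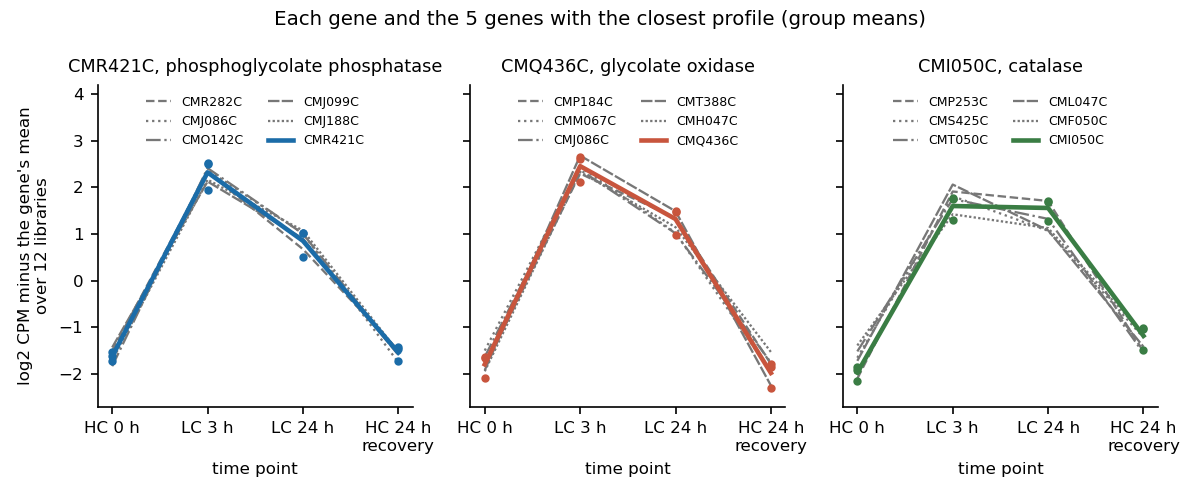
Group means of log2 CPM minus each gene's mean over the 12 libraries, for each enzyme (coloured line, points for its libraries) and the 5 genes with the closest profile (grey lines), by time point. The profiles of phosphatase and oxidase are lower at LC 24 h than at LC 3 h, as are those of their neighbours, whereas for catalase LC 24 h and LC 3 h differ by -0.04 and all 5 nearest genes lie further below their LC 3 h value.

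The 3 genes lie apart from each other in the genome. Of their annotated neighbours 4 were tested, and they were looked at for position, after their values were known. CMI049C, a putative fructose-bisphosphate aldolase beside catalase, changed by 1.31 ± 0.22 at LC 3 h against HC 0 h (edgeR adjusted p = 0.000736). The neighbours CMR420C and CMR423C of the phosphatase were at 0.09 ± 0.07 and -0.04 ± 0.06, and CMQ434C beside the oxidase was at -0.27 ± 0.24. These 3 were not called at LC 3 h (edgeR adjusted p of 0.311, 0.633 and 0.411), beside 41.4% of all genes called. At LC 24 h against HC 0 h, where 63% of all genes were called, CMR420C was at -0.50 ± 0.07 (edgeR adjusted p = 7.05e-05). CMQ434C was then at -0.81 ± 0.24 (edgeR adjusted p = 0.013). Neither CMR423C at 0.12 ± 0.06 nor CMI049C at 0.45 ± 0.22 was called at LC 24 h (edgeR adjusted p of 0.133 and 0.0943).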

How the data were processed

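The deposited table holds, per the file headers, estimated counts and TPM for 12 libraries, a gene length, log2 fold changes and q-values. Per the submitters' processing notes the authors used CASAVA 1.8, Bowtie2, RSEM and edgeR. Which tool did what, which annotation was counted and which genome build was used is not given in the sources used here. Of the deposited estimated count values 94.0% were whole, and all were rounded to whole numbers for testing. Columns were matched to samples by name, with 0 left unmatched. The deposited TPM values were used as given; 14 genes have no length and no TPM. The listed length was within 1 base of the RefSeq coding length for 92.2% of genes, so TPM is per coding length. The log2 fold changes and q-values of the authors' deposited table are quoted as such. The similarity score deposited for each Arabidopsis match is an E-value, and the search behind it is not stated. Of 4970 identifiers, 4738 were found in the RefSeq table.

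Counts were fitted with edgeR 4.0.16 (limma 3.58.1, R 4.3.3) in 1 model of 4 groups over 12 libraries, with TMM scaling, the default expression filter (4865 genes kept, 105 removed, the 3 genes kept) and robust quasi-likelihood F tests. Benjamini-Hochberg adjustment ran over all tested genes, separately for the 5 comparisons. The SE is the absolute log2 change over the square root of F. Log2 CPM carries a prior count of 2. TPM ratios were tested with an exact permutation test of the F statistic over the 4 groups. Its p-value is the share of divisions with a statistic at least as large as the observed one. The code was tested on simulated data. The p-values measure the spread between the biological replicates of the labels; whether the cultures of 1 number are the same over time is not stated. The alternatives tried were DESeq2 1.42.0, limma on log2(TPM + 1), a replicate block, a fit of only the 6 libraries compared, scaling by upper quartile or by relative log expression, testing all genes unfiltered or those reaching 10 CPM in 3 libraries, a pseudocount of 1 in the ratios, and leaving out each library or replicate 1 of all groups. Genes named beside the 3 are their 5 nearest profiles and, from 6 lists built by identifiers and description words, up to 3 highest and 3 lowest called genes at LC 3 h and LC 24 h, of which the text names part. Named outside this rule, after their values were seen, are CMM158C, the list genes called after recovery, CMQ019C, CMD105C and CML093C, and the neighbours CMI049C, CMR420C, CMR423C and CMQ434C. The 3 genes, the lists and the tests were chosen with earlier results of these data known. No sequence is printed, and no coordinates, since the build of the table is not named.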

Additional observations from a re-analysis of the deposited data

How the results depend on the processing

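At LC 3 h and LC 24 h against HC 0 h and at recovery against LC 24 h, the 3 enzymes kept direction and call under all 21 alternatives, and so did phosphatase and oxidase between LC 24 h and LC 3 h. The 3 ratios kept their calls under all 15 alternatives, with adjusted p up to 0.00952, reached without replicate 1 of every group. With so few libraries left, that value is the smallest the exact test can give. Recovery against HC 0 h depended most on the processing. There, 684 genes were called by edgeR, 1071 by DESeq2, 1251 with the replicate block, 2340 without replicate 1 of every group and 189 to 1198 when 1 library was left out. The oxidase, at -0.18, was called only without replicate 1 of every group, at -0.17 (edgeR adjusted p = 0.0279). The phosphatase, at 0.09, was at -0.0044 with limma on log2(TPM + 1). Catalase, at 0.80, ranged from 0.71 to 0.94 when 1 library was left out. For catalase CMI050C between LC 24 h and LC 3 h, at -0.04 and not called, the sign turned with upper-quartile scaling at 0.036, with only the 6 libraries compared at 0.011 and with limma on log2(TPM + 1) at 0.20, and leaving out 1 library gave -0.20 to 0.086. The cause was not tested. The TPM scale moved the median log2 change of all genes to -0.13 and 0.11 at LC 3 h and LC 24 h against HC 0 h, and to -0.08, -0.18 and 0.19 at recovery against HC 0 h, at recovery against LC 24 h and at LC 24 h against LC 3 h. Of the calls at LC 3 h against HC 0 h, 53.4% were higher, beside 39.5% with upper-quartile scaling and 32.2% with limma on log2(TPM + 1). The limma share was 26.1% beside 51.5% at recovery against HC 0 h, 27.6% beside 49.7% at recovery against LC 24 h and 72.3% beside 44.5% at LC 24 h against LC 3 h, where upper-quartile scaling gave 54.6%.

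Replicate numbers were not taken to pair the samples. Of 18 pairs of libraries with the same number in different groups, 15 had deviations from their group means that correlated above 0.1 (r from -0.08 to 0.53, median 0.30). Pairs with different numbers had r from -0.56 to 0.46 (median -0.18). Deviations within a group cancel, so these correlations are not independent. The best correlation was with the own number for 10 of 12 libraries, a hint from the data and not from the design. With the replicate block, 2400, 3331, 2812 and 2931 genes were called at LC 3 h and LC 24 h against HC 0 h, at recovery against LC 24 h and at LC 24 h against LC 3 h, beside 2015, 3065, 2413 and 2587 without it. The block changed no call of the 3 enzymes or their ratios. Depth was not a limit for the 3 genes, the lowest count being 912.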
